A study of Homo sapiens with 6 samples.

Results

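The 10 genes described here belong to the cytosolic heat shock response: HSPA1A, HSPA1B, HSPA8, HSPH1, DNAJB1, HSP90AA1, HSPB1, HSPE1, BAG3 and HSF1. They were chosen by name for their role in this response, and all 10 were found among the 57736 genes of the deposited table and among the 15421 genes tested. RNA came from AALE cells, a human bronchial basal epithelial line immortalised with SV40 genes and telomerase (hTERT), grown in small airway epithelial medium. The cells of 3 libraries carried a lentiviral vector for overexpression of NRG1, which encodes the ERBB receptor ligand neuregulin, and those of 3 libraries carried a control lentiviral vector. Both groups share the SV40 and hTERT background, and each is a stable pool of transduced cells rather than a clone. No source used here names the promoter that drives NRG1. Nothing in the labels ties the libraries to separate cultures, so the p-values below rest on a spread between libraries that may be technical.

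The heat shock response is the rise of chaperone transcripts that follows an excess of unfolded protein. The transcription factor HSF1 is held inactive by chaperones, is released when these are occupied, and as a trimer binds heat shock elements, which are inverted repeats of the unit GAA. Its targets are partners in protein folding: J-domain proteins deliver clients to HSP70, exchange factors release them, HSP90 matures them, and small HSPs hold aggregating proteins. In airway epithelium, as in most tissues, part of this set (HSPA8, HSP90AA1, HSPE1) is expressed without stress, while HSPA1A, HSPA1B and DNAJB1 are strongly inducible. The SV40 large T antigen itself carries a J domain that engages HSPA8, a general property of SV40-immortalised cells.

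Promoter windows of the members show where the HSF1 motif lies in the genes whose levels moved most between libraries. RefSeq windows (GRCh38.p14, 250 bases before to 50 after an annotated start) were matched by symbol for 9 of the 10 genes, the exception being HSF1. Capitals mark matches to the motif with 2 inverted units, GAANNTTC or TTCNNGAA, and with 3, GAANNTTCNNGAA or TTCNNGAANNTTC, which each hold a pair of the shorter matches; each pattern was read on both strands. The windows shown are HSPA1A (chr6:31815293-31815592, plus strand), HSPA1B (chr6:31827488-31827787, plus), HSPA8 (chr11:123062087-123062386, minus), DNAJB1 (chr19:14518348-14518647, minus; of 3 listed starts, the one with most matches) and HSP90AA1 (chr14:102086995-102087294, minus; of 2 listed starts, the one with matches).
HSPA1A: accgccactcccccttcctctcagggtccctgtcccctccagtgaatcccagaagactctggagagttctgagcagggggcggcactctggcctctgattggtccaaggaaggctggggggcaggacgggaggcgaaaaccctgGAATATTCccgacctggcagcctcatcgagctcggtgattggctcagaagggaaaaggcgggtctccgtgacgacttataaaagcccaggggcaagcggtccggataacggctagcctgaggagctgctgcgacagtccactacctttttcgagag
HSPA1B: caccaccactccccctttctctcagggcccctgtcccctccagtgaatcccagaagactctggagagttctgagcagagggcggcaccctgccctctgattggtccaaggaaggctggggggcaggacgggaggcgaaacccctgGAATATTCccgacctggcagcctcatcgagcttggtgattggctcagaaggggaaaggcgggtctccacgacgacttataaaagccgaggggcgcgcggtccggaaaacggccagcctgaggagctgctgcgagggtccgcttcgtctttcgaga
HSPA8: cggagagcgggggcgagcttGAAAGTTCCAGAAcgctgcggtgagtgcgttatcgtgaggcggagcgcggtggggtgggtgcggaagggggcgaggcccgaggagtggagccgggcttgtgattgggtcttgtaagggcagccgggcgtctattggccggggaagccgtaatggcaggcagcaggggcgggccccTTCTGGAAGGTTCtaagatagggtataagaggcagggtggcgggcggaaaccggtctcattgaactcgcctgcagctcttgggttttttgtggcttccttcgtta
DNAJB1: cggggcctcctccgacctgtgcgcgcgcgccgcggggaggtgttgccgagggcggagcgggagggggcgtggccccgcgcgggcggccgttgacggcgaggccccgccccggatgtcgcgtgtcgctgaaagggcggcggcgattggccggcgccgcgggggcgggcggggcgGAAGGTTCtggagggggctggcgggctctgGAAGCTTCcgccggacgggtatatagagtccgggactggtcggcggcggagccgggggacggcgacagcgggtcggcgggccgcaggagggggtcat
HSP90AA1: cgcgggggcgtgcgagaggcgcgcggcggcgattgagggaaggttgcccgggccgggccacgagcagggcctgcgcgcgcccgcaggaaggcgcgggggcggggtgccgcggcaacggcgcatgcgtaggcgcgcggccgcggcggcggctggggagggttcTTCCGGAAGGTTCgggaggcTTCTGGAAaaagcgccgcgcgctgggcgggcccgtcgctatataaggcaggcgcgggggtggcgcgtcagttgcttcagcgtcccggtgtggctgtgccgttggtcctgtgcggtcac
The HSPA1A and HSPA1B windows were identical at 277 of 300 bases and both held GAATATTC, with its first base at -106 in HSPA1A and -105 in HSPA1B relative to the start. HSPA8 held the motif with 3 units at -230 and at -55, and HSP90AA1 held it at -88. At least 1 match with 2 units was present in 6 of the 9 members with a window (the 5 shown and HSPB1), against 16.2% of all 27305 genes with windows, and a match with 3 units in 2 of 9, against 0.608%. Among tested genes with windows the shares were 13.8% and 0.5%. The members were chosen for their role in this response, so their higher shares were built into the choice and are no result. The HSPH1, BAG3 and HSPE1 windows held no exact match. These are matches of letters and not measured binding.

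Total expected counts ran from 8612234 to 10609067 in the NRG1 libraries and from 9549284 to 13207620 in the control libraries. NRG1 itself was at 6647, 3854 and 3781 CPM (counts scaled to library size, with TMM factors) in NRG1 1 to 3, against 11.6, 7.87 and 12.3 CPM in control 1 to 3. Control 3 and NRG1 1 stood apart: over all tested genes the median absolute log2 difference was 0.428 and 0.425 between control 3 and the other controls, 0.392 and 0.373 between NRG1 1 and the other NRG1 libraries, and 0.12 between NRG1 2 and NRG1 3. The chi-square of counts per degree of freedom was 2.66 between NRG1 2 and NRG1 3 and 18.8 to 65.7 in the other pairs within a group. NRG1 2 and NRG1 3 thus differed by more than counting noise and are kept as 2 libraries, but whether they are independent samples is not known, and every test below counts them as such. Basal cell markers (7 of 7 detected) summed to 5279 to 6393 CPM in NRG1 libraries and 8064 to 11718 CPM in control libraries. They did not move together, with 5 log2 fold changes below 0 and 2 above. KRT5 averaged 3409 CPM in NRG1 and 4868 CPM in control libraries, KRT17 1410 and 2811 CPM, and KRT14 176 and 959 CPM. In the same order TP63 averaged 194 and 183 CPM, ITGA6 400 and 400 CPM, and KRT15 57.7 and 11.7 CPM. Fibroblast markers (8 of 8 detected) summed to 22.1 to 28.9 CPM in NRG1 and 44.7 to 70.7 CPM in control libraries, with COL1A2, COL3A1 and LUM below 1 CPM everywhere, while 5 leukocyte markers (CD3E at 0) summed to 3.21 to 6.91 CPM in NRG1 and 2.16 to 4.11 CPM in control libraries. The 3 endothelial markers found (CDH5 at 0) summed to 0.618 to 2.28 CPM in NRG1 and 0.645 to 0.807 CPM in control libraries. In bulk RNA fewer cells of a type and less RNA per cell cannot be told apart, and the part of these markers in the results below was not tested.

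With all 6 libraries, none of the 10 heat shock response genes passed the test for a difference between NRG1 and control cells. HSPA1A had a log2 fold change of 0.19, and DNAJB1 one of -0.96, in each case with a 95% interval across 0. Under the quasi-likelihood test of edgeR, with p-values adjusted by Benjamini-Hochberg across the whole table, 0 of 10 members passed 0.05 in either direction, against 0.00648% of all tested genes (1 gene, NRG1, which was higher). DESeq2 also called 0 members, where it called 1.36% of all genes. At an unadjusted p under 0.05 there were 0 members, against 11.8% of all genes. The members' median log2 fold change was -0.18, beside 0.00034 over all tested genes, with 3 above 0 and 7 below. What separated the libraries was control 3, in which 5 of the 10 members were at least 2-fold above the mean of the other controls, against 6.3% of all tested genes, and NRG1 2 and NRG1 3, in which the HSPA1 pair was above NRG1 1, control 1 and control 2.

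**Figure D1:**
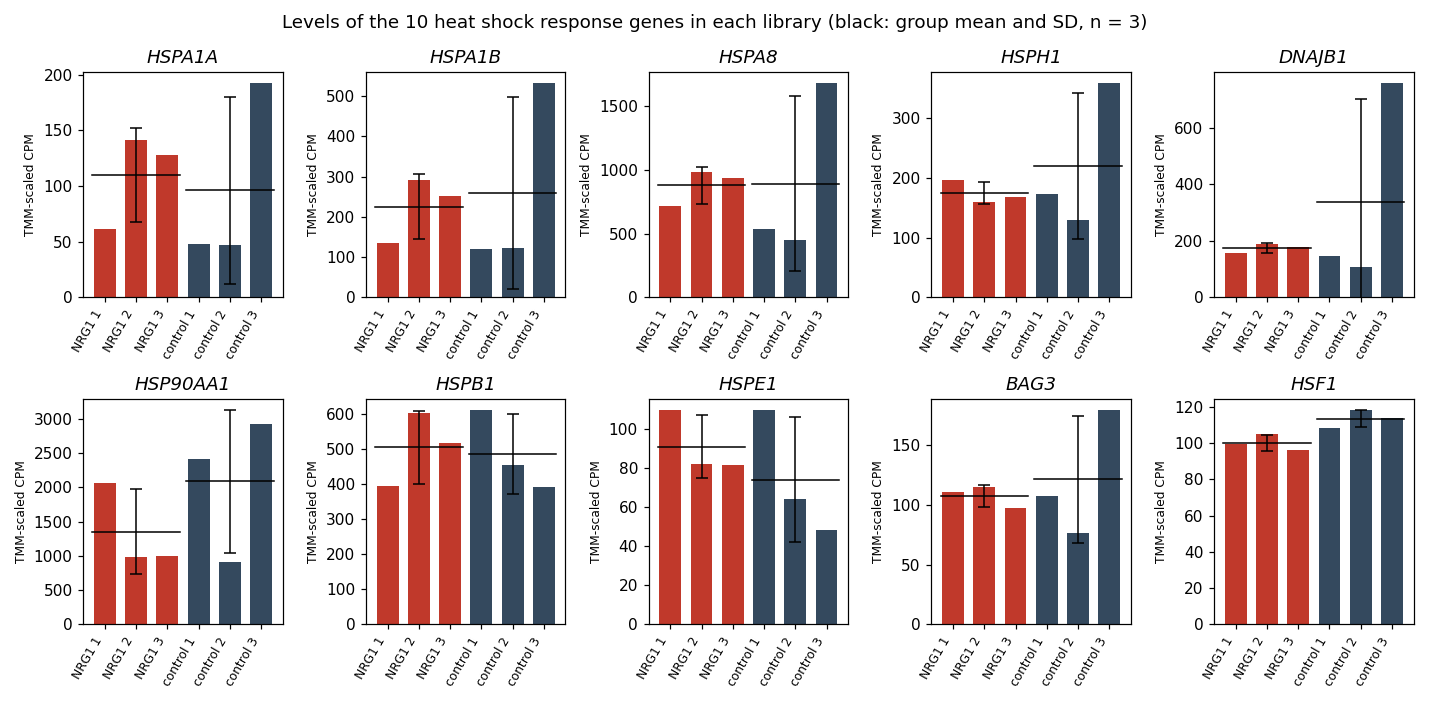
TMM-scaled CPM (linear axis from 0) of each of the 10 genes in the 3 NRG1 libraries (red) and the 3 control libraries (dark blue), with the group mean and SD in black; the DNAJB1 error bar is cut where it would pass below 0. Control 3 is the highest bar for 7 genes, among them DNAJB1 at 760 CPM, and HSF1 lies between 96.2 and 118 CPM in every library.

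The inducible HSP70 genes HSPA1A (ENSG00000204389) and HSPA1B (ENSG00000204388), which encode the same stress-induced chaperone and neighbour each other on chromosome 6 beside HSPA1L, ran in parallel. HSPA1A was at 61.4, 141 and 128 CPM in NRG1 1 to 3, against 48.2, 47.03 and 193 CPM in control 1 to 3. HSPA1B was at 134, 291 and 251 CPM in NRG1 1 to 3, against 121, 122 and 534 CPM in control 1 to 3. Control 3 was the highest library for both genes, NRG1 2 and NRG1 3 came next, and the remaining 3 libraries were low, so the groups overlapped. The group means were 110.03 ± 42.6 CPM in NRG1 and 96.1 ± 84 CPM in control for HSPA1A, and 225 ± 81.4 and 259 ± 238 CPM for HSPA1B (SD, n = 3 each). The log2 fold change was 0.19 (SE 0.56, 95% interval -1.09 to 1.48) for HSPA1A and -0.20 (SE 0.58, -1.52 to 1.12) for HSPA1B, with edgeR adjusted p-values of 0.907 and 0.906. Both intervals cross 0, and whether the opposite signs reflect a difference between the genes was not tested. Of the 50-base windows of the HSPA1A transcript, 72.6% occur exactly in that of HSPA1B, and reads in them fit both. HSPA1B took 68.6%, 67.3% and 66.3% of the pair's counts in NRG1 1 to 3, against 71.5%, 72.1% and 73.4% in control 1 to 3. That share depends on how the authors' counting split shared reads, and its difference between the groups was not tested. Summed to 1 row, the pair was at 195, 432 and 378 CPM in NRG1 1 to 3, against 169, 169 and 727 CPM in control 1 to 3, with a log2 fold change of -0.08 (SE 0.57) and an edgeR adjusted p of 0.963.

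HSPA8 (ENSG00000109971), the constitutive HSP70 that folds new proteins and uncoats clathrin vesicles, followed the same order of libraries as HSPA1A. Its ratio of highest to lowest library was smaller. HSPA8 was at 715, 981 and 937 CPM in NRG1 1 to 3, against 537, 452 and 1687 CPM in control 1 to 3, with means of 878 ± 143 CPM in NRG1 and 892 ± 690 CPM in control (SD, n = 3 each). Control 3 lay above all other libraries and control 1 and 2 below them. NRG1 1 lay nearer to the other NRG1 libraries here than in the HSPA1 pair, at 0.746 of their geometric mean, where the value was 0.459 for HSPA1A and 0.497 for HSPA1B. These were the 2 members at least 2-fold lower in NRG1 1 than in the other NRG1 libraries, against 10.3% of all tested genes. The log2 fold change over all libraries was -0.02 (SE 0.46, 95% interval -1.07 to 1.03; edgeR adjusted p = 0.987), and it was 0.06 with upper-quartile scaling. The 17 HSPA8 pseudogene rows held 0.621% to 0.824% of the family's counts in each library, as divided by the authors' counting.

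The partners of HSP70 were set apart by control 3. DNAJB1 (ENSG00000132002), the J-domain protein that stimulates the HSP70 ATPase, was at 155, 189 and 179 CPM in NRG1 1 to 3, against 147, 108 and 760 CPM in control 1 to 3. It showed the widest range among the 10 genes as a ratio of highest to lowest library, though not in CPM, where HSP90AA1 and HSPA8 spanned more. Control 3 was 6.04 times the geometric mean of the other controls, rank 59 of the 15421 tested genes by that ratio. Its means were 174 ± 17.1 CPM in NRG1 and 338 ± 366 CPM in control (SD, n = 3 each). HSPH1 (ENSG00000120694), an HSP110 protein that exchanges nucleotide on HSP70 and acts in dissolving aggregates, was at 196, 160 and 169 CPM in NRG1 1 to 3, against 172, 130 and 360 CPM in control 1 to 3. BAG3 (ENSG00000151929), an exchange factor that links HSP70 to small HSPs and to autophagy, was at 110, 115 and 97.4 CPM in NRG1 1 to 3, against 108, 76.5 and 179 CPM in control 1 to 3. For HSPH1 and BAG3 control 1 lay within the range of the NRG1 libraries, control 2 was lowest and control 3 highest. HSPH1 averaged 175 ± 18.9 CPM in NRG1 and 221 ± 123 CPM in control, and BAG3 averaged 107.5 ± 9.03 CPM in NRG1 and 121 ± 52.7 CPM in control. The log2 fold changes were -0.96 (SE 0.65), -0.34 (SE 0.34) and -0.17 (SE 0.29) for DNAJB1, HSPH1 and BAG3, with edgeR adjusted p-values of 0.564, 0.699 and 0.822.

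HSP90AA1 (ENSG00000080824), the inducible cytosolic HSP90 that matures kinases and steroid receptors, split the libraries differently. It was at 2068, 987 and 995 CPM in NRG1 1 to 3, against 2413, 915 and 2924 CPM in control 1 to 3. NRG1 1, control 1 and control 3 were high and the other 3 libraries were low, a division that crosses the groups. The means were 1350.2 ± 622 CPM in NRG1 and 2084 ± 1044 CPM in control (SD, n = 3 each), with a log2 fold change of -0.63 (SE 0.44; edgeR adjusted p = 0.583). Its 5 pseudogene rows held 0.33% to 0.597% of the family's counts. The same 3 libraries were the higher ones for the cytosolic paralogue HSP90AB1, a gene outside the 10, though with NRG1 1 highest. It was at 1537, 1048 and 1012 CPM in NRG1 1 to 3, against 1153, 748 and 1280 CPM in control 1 to 3.

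HSPB1 and HSPE1 were lower in control 3 than in the other controls. HSPB1 (ENSG00000106211), the small HSP known as HSP27, was at 395, 602 and 515 CPM in NRG1 1 to 3, against 611, 455 and 391 CPM in control 1 to 3, and its lowest value was in control 3. HSPE1 (ENSG00000115541), the mitochondrial co-chaperonin that caps the HSPD1 ring, was at 109, 81.8 and 81.3 CPM in NRG1 1 to 3, against 109.6, 63.9 and 48.3 CPM in control 1 to 3. In both genes the groups overlapped. HSPB1 averaged 504 ± 104 CPM in NRG1 and 486 ± 113 CPM in control, and HSPE1 averaged 90.9 ± 16.1 CPM in NRG1 and 73.9 ± 31.9 CPM in control (SD, n = 3 each). The log2 fold changes were 0.05 (SE 0.22) and 0.30 (SE 0.30), with edgeR adjusted p-values of 0.936 and 0.695. HSPE1 shares exons with the read-through gene HSPE1-MOB4, which was at 11.7, 7.85 and 9.55 CPM in NRG1 1 to 3, against 9.91, 10.2 and 20 CPM in control 1 to 3. No HSPE1 pseudogene held more than the 3.79 expected counts of HSPE1P3 in control 1. The sum of HSPE1 and the read-through gene was still lowest in control 3, at 68.2 CPM, where control 1 and control 2 had 120 and 74.1 CPM. HSPD1 lies on the opposite strand, and its exons overlap those of HSPE1 by position at 169 bases in GENCODE 29. HSPD1 was at 622 CPM in control 3, above 552 and 502 CPM in control 1 and control 2.

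HSF1 (ENSG00000185122), the transcription factor of the response, whose activity is set mainly on the protein, varied least. It was at 99.4, 105 and 96.2 CPM in NRG1 1 to 3, against 108, 118 and 114 CPM in control 1 to 3, and control 3 was 1.01 times the other controls. All 3 NRG1 libraries lay below all 3 controls, with means of 100.2 ± 4.52 CPM in NRG1 and 114 ± 4.85 CPM in control (SD, n = 3 each). HSF1 was the single member of the 10 whose groups did not overlap, against 10.2% of all tested genes that were lower in this way. No member was higher in this way, against 9.36% of all genes, and in either direction the share of all genes was 19.6%. The log2 fold change was -0.18 (SE 0.14, 95% interval -0.50 to 0.14), with an edgeR adjusted p of 0.608. HSF2, the related factor that can pair with HSF1, was at 31.03, 28.1 and 29.2 CPM in NRG1 1 to 3, against 29.4, 29.5 and 48.5 CPM in control 1 to 3.

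Per kilobase of exon (GENCODE 29 gene models), levels of different genes can be set roughly side by side. The authors' counts may rest on another annotation. The separate levels of HSPA1A and HSPA1B depend on how their shared reads were split. In NRG1 cells HSPB1 was highest at 476 ± 98.1 CPM per kilobase, followed by HSP90AA1 at 335 ± 154 and HSPA8 at 325 ± 52.9 (SD, n = 3). Control cells had 458 ± 107 for HSPB1, 518 ± 259 for HSP90AA1 and 330 ± 256 CPM per kilobase for HSPA8. In NRG1 cells all HSPB1 values (373 to 568) lay above all HSPA8 values (265 to 363), while those of HSP90AA1 (245 to 514) overlapped both. In control cells the values of these 3 genes overlapped. The other 7 genes averaged 30.8 (HSPH1) to 89.4 (HSPA1B) CPM per kilobase in NRG1 and 38.7 (HSPA1A) to 138 (DNAJB1) in control cells. Within that lower tier, HSF1 at 44.9 ± 2.03, HSPA1A at 44.3 ± 17.2 and BAG3 at 41.8 ± 3.51 CPM per kilobase in NRG1 cells did not differ beyond their spread. Together the 10 genes took 0.38%, 0.369% and 0.351% of all counts in NRG1 1 to 3, against 0.439%, 0.258% and 0.705% in control 1 to 3.

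Part of the response was high in control 3 and the rest was not. Relative to the geometric mean of control 1 and control 2, it was 6.04 times for DNAJB1, 4.40 times for HSPA1B, 4.04 times for HSPA1A, 3.42 times for HSPA8 and 2.41 times for HSPH1. Just under 2-fold were BAG3 at 1.97 times and HSP90AA1 at 1.97 times, and below 1 were HSPB1 at 0.741 and HSPE1 at 0.578 times. For HSP90AA1 the ratio rests on the low control 2 (915 CPM), since control 1 (2413 CPM) was near control 3 (2924 CPM). Control 3 is 1 library, so the difference has no replicate and no test. Other genes that moved in control 3 included NGFR, a basal cell receptor, at 302 CPM in that library against 18.3 and 46.8 CPM in the other controls. Control 3 also had the largest total count. The part of depth or of these other genes in the pattern was not tested.

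**Figure D2:**
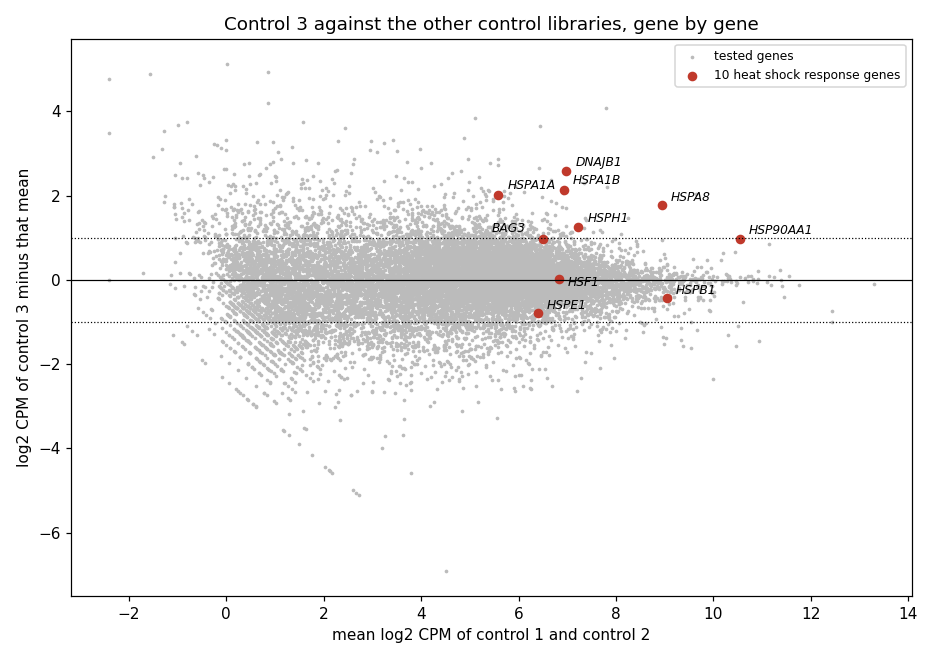
Each point is a tested gene: the horizontal axis gives the mean log2 CPM of control 1 and control 2, the vertical axis the log2 CPM of control 3 minus that mean, with dotted lines at 2-fold. Of the 10 genes (red), DNAJB1, HSPA1B, HSPA1A, HSPA8 and HSPH1 lie above the upper line, BAG3 and HSP90AA1 just under it, HSF1 at 0.01, and HSPB1 and HSPE1 below 0.

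Leaving out control 3 turned the sign of 6 of the 10 fold changes, 5 of them to above 0 and that of HSPB1 to -0.09. The adjusted test was passed by 0 of 10, against 0.00648% of all tested genes, which is 1 gene. Against control 1 and control 2 alone, all 3 NRG1 libraries were higher for HSPA1A, HSPA1B, HSPA8 and DNAJB1, which is 4 of 10 members, against 13.3% of all tested genes. HSF1 was lower in all 3, as were 13.9% of all genes. The log2 fold changes without control 3 were 1.21 (SE 0.36, 95% interval 0.35 to 2.06) for HSPA1A, 0.89 (SE 0.32, 0.11 to 1.67) for HSPA1B, 0.82 (SE 0.20, 0.33 to 1.31) for HSPA8 and 0.45 (SE 0.18, 0.0087 to 0.88) for DNAJB1. These 4 genes had an unadjusted p under 0.05, as did 9.44% of all genes. Control 3 was left out with its high values of these same genes known, which moves their fold changes up and narrows the spread of the controls, so these intervals and p-values are too favourable and support no difference. Their adjusted p-values in edgeR were 0.441, 0.483, 0.405 and 0.52. HSPH1 and BAG3 had log2 fold changes of 0.20 and 0.22 and HSP90AA1 one of -0.31, all with intervals across 0. HSPA1A and HSPA1B share reads and are not separate observations.

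**Figure D3:**
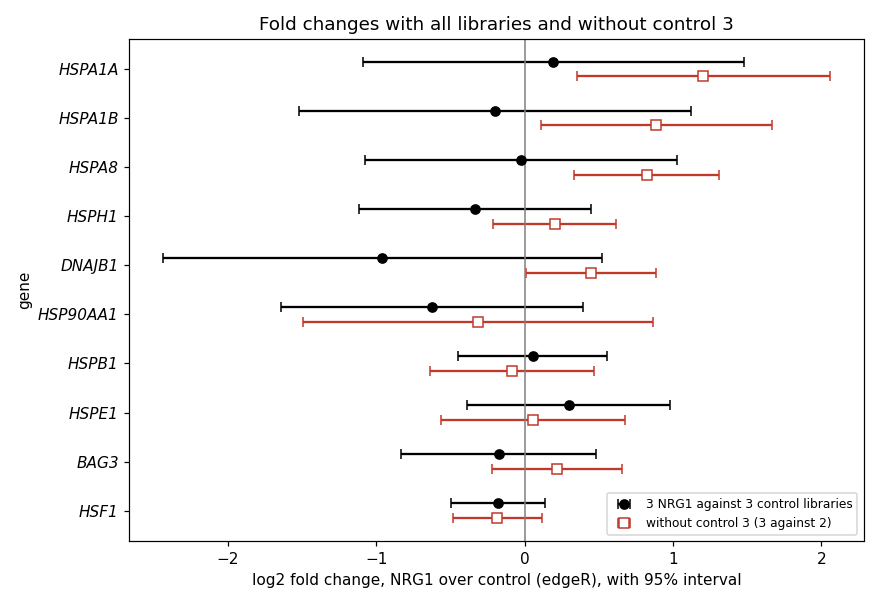
Log2 fold changes of NRG1 over control (horizontal axis, edgeR) with 95% intervals for the 10 genes, from all 6 libraries (black circles) and without control 3 (open red squares). Every black interval crosses 0, while without control 3 those of HSPA1A, HSPA1B, HSPA8 and DNAJB1 lie above 0 before adjustment for the number of genes.

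Without both control 3 and NRG1 1, the comparison of NRG1 2 and NRG1 3 with control 1 and control 2 called 3 of 10 members, against 9.82% of all tested genes in either direction. All 3 were higher, against 5.04%, and 0 were lower, against 4.79%. HSPA1A had a log2 fold change of 1.5 (SE 0.11), HSPA1B one of 1.16 (SE 0.11) and HSPA8 one of 0.96 (SE 0.13), with adjusted p-values in edgeR's quasi-likelihood test of 0.00155, 0.00347 and 0.00758. DNAJB1 had one of 0.53 (adjusted p = 0.0697), while HSPH1, BAG3, HSPB1, HSPE1, HSF1 and HSP90AA1 had adjusted p-values from 0.249 to 0.83. In the other lists 3 of 63 genes were called, all higher, which is no more than the share of all tested genes. They were HSPA1L (log2 fold change 1.68, edgeR adjusted p = 0.0444), HSF4 (1.03, 0.0199) and AHSA2P (0.80, 0.0145). HSPA1L was low throughout, from 0.967 CPM in control 1 to 3.94 CPM in the left-out control 3, its highest library. In the left-out NRG1 1, HSF4 was at 1.85 CPM, below the 4.79 to 7.97 CPM of the 3 control libraries, and AHSA2P was at 29.2 CPM, below their 53.3 to 102 CPM. NRG1 1 and control 3 were left out because they stand apart from the rest, which lowers the spread within groups. For HSPA1A, HSPA1B and HSPA8, control 3 was also the highest control library and NRG1 1 the lowest NRG1 library. Leaving both out with these values known moves the fold changes of these genes up. The p-values are therefore too small by an unknown amount and do not support a difference. HSPA1A and HSPA1B share reads, so their calls are not separate observations.

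Outside the 10 genes, 9 lists of other chaperone and heat-inducible genes held 72 entries, of which 63 were tested. Of these 63, 0 were called by edgeR, 3 were under 0.05 before adjustment (1 higher, 2 lower), 27 had a fold change above 0, and the median log2 fold change was -0.04. The 3 are 4.76% of the 63, below the 11.8% of all tested genes, and 6 of the 63 had groups that did not overlap (3 higher, 3 lower), against 19.6% of all tested genes. FKBP5, an HSP90 cochaperone of steroid receptors, was at 848, 691 and 711 CPM in NRG1 1 to 3, against 566, 530 and 498 CPM in control 1 to 3, a log2 fold change of 0.50 (SE 0.15; adjusted p = 0.335). DNAJB4, a J-domain protein, had one of -0.68 (SE 0.26; adjusted p = 0.389) and HSPA12A, a distant HSP70 relative, one of -0.63 (SE 0.25; adjusted p = 0.398). In the same fit HSPA9, the mitochondrial HSP70, had a log2 fold change of 0.37 (SE 0.17; adjusted p = 0.432), ST13, a cochaperone that steadies the ADP state of HSP70, one of 0.30 (SE 0.15; 0.455) and the collagen chaperone gene SERPINH1 one of -0.32 (SE 0.16; 0.457).

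In control 3, 8 of these 63 genes were at least 2-fold above the other controls, or 12.7%, which is nearer to the 6.3% of all tested genes than the 5 of 10 above. Of the 8, 4 were among the cytosolic HSP70 relatives, where the median was 1.10 (log2, 7 genes). The median was 0.70 among the J-domain proteins (8 genes), 1 of which passed 2-fold, against 0.007 over all tested genes. The medians were 0.16 in the HSP90 list (13 genes), 0.16 in the TRiC chaperonin list (8 genes), -0.18 in the mitochondrial list (8 genes) and 0.02 among HSP70 exchange factors (6 genes). They were 0.48 among other heat-inducible genes (7 genes), -0.22 in the HSF family list (4 genes) and -1.18 in other small HSPs (2 genes), and 2 of the 63 genes were at least 2-fold lower in control 3. Named here after their values were seen, HSPA6, a strictly stress-inducible HSP70, was at 0.865, 0.187 and 0.977 CPM in NRG1 1 to 3, against 1.05, 0.606 and 9.73 CPM in control 1 to 3. DNAJA1, a J-domain partner of HSPA8, was at 199, 222 and 212 CPM in NRG1 1 to 3, against 189, 144 and 455 CPM in control 1 to 3. DEDD2 was at 71.9 CPM and CHORDC1, an HSP90 cochaperone, at 146 CPM in control 3, against at most 24.3 and 76.1 CPM in the other 5 libraries. Of the 8 TRiC chaperonin genes, TCP1 and CCT4 were highest in control 3 and the other 6 in NRG1 1.

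**Figure D4:**
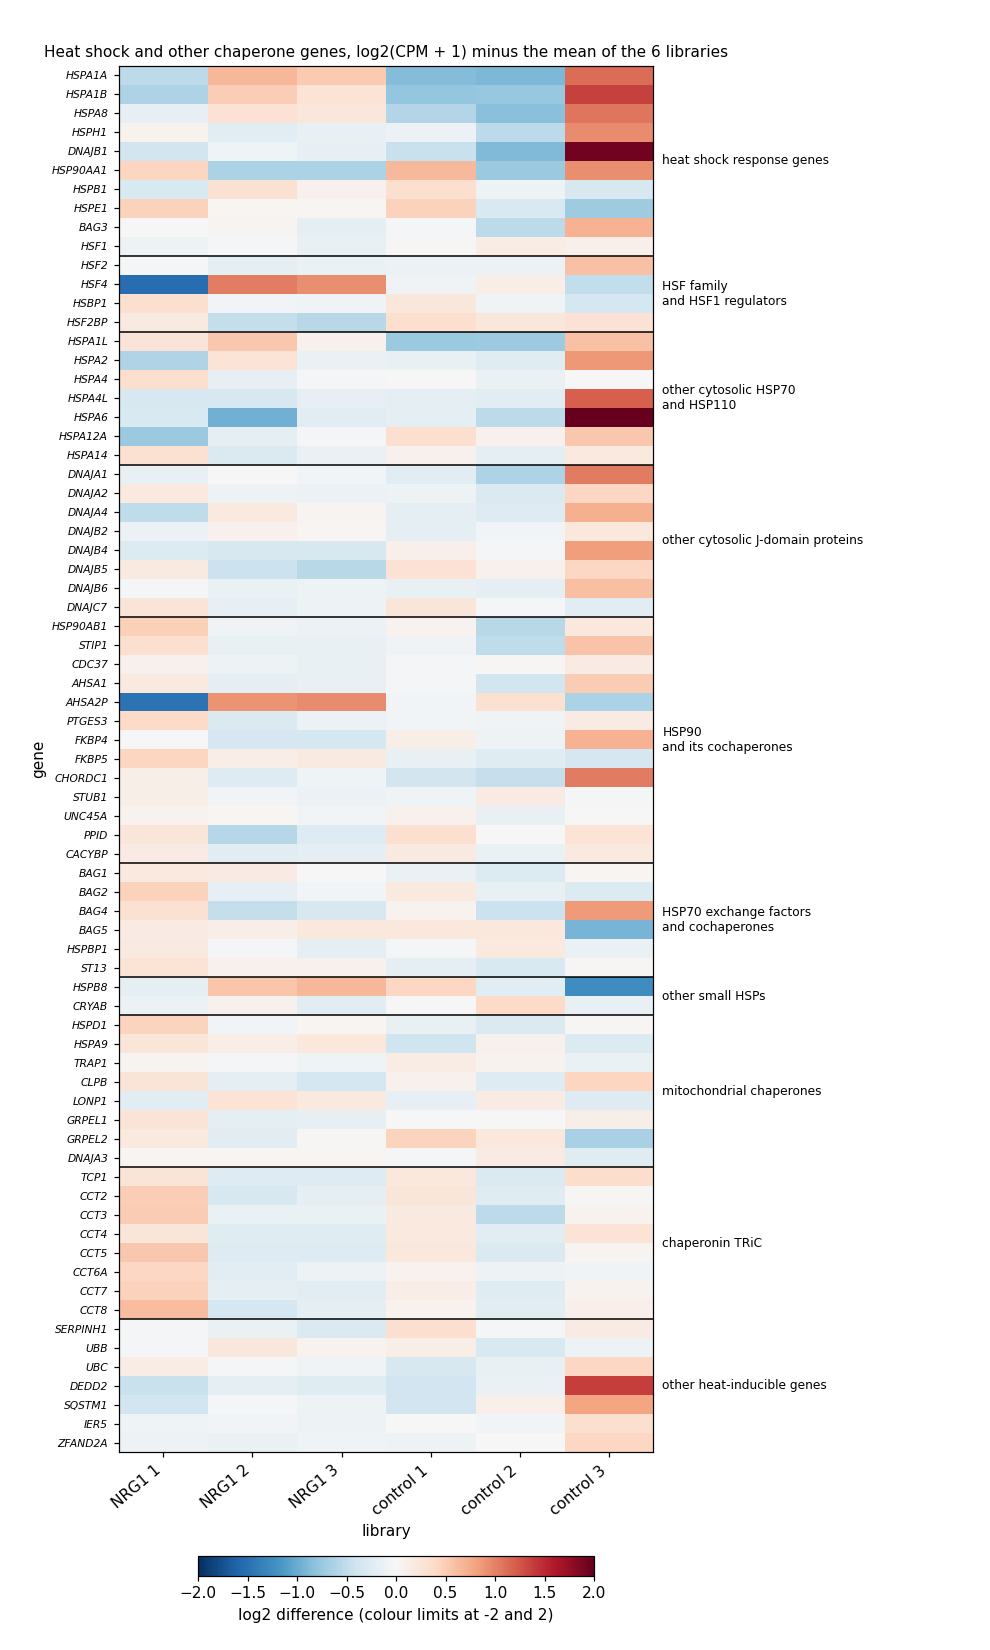
Each row is a tested gene, grouped by list, and each column a library; colour gives log2(CPM + 1) minus the gene's mean over the 6 libraries, red above and blue below. The control 3 column is red for most of the upper members and for HSPA6, DNAJA1, CHORDC1 and DEDD2, while the TRiC block is reddest in NRG1 1.

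Tested genes whose RefSeq window holds the motif with 3 units were described in the same way. Of 55 such genes, 8 were at least 2-fold higher in control 3, or 14.5% of them, and their median was 0.19 (log2). With the members and the other lists left out, 46 genes remained, of which 4 were at least 2-fold higher, or 8.7%, beside 6.18% of the 10995 tested genes with a window. The median NRG1 over control log2 fold change of the 55 was -0.05, beside -0.01 over those 10995 genes.

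Among the genes with the pattern most like the mean centred log2 level of HSPA1A, HSPA1B, DNAJB1, HSPH1 and BAG3 were OSBPL2, USPL1, LMLN and USP34, with Pearson correlations of 0.986 to 0.993 over the 6 libraries. They were taken from 10523 genes with a mean of at least 10 CPM. Control 3 was the highest library in these 4, which follows from the selection, since the profile itself is highest in control 3. USPL1, a SUMO protease, was at 22.5, 30.3 and 26.6 CPM in NRG1 1 to 3, against 20.07, 19 and 60.5 CPM in control 1 to 3. USP34, a ubiquitin protease, was at 160, 169 and 172 CPM in NRG1 1 to 3, against 155, 137 and 239 CPM in control 1 to 3. Among the members themselves, the correlation with that mean profile was 0.978 for HSPA8, which did not enter it, 0.428 for HSP90AA1, 0.042 for HSF1, -0.322 for HSPB1 and -0.627 for HSPE1.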

How the data were processed

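Libraries were made from polyA RNA of AALE cells by a TruSeq v2 protocol, per the labels, and the sample titles gave group and replicate. The authors deposited expected counts, not normalized, for 57736 genes; the submitters' processing notes list, with no roles, build hg19 and the tools RSEM 1.3.0, STAR 2.5.3a, MultiQC 0.9 and FastQC 0.11.3. No source used here names the gene annotation. An estimator of expected counts divides reads that fit several genes among them, so counts of HSPA1A, HSPA1B and HSPE1 are uncertain. The authors' other table holds log2 values for 14759 genes. They equal, within rounding, TMM-scaled log2 CPM of the expected counts at prior count 0.25.

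After rounding, expected counts entered the quasi-likelihood test of edgeR 4.0.16 (R 4.3.3), with TMM factors, the filterByExpr filter and no covariate, with Benjamini-Hochberg adjustment over the 15421 genes tested, which held at least 99.7% of the counts of every library. For ratios of single libraries, log2 CPM was taken at prior count 2. The lowest member value in any library rested on 466 expected counts (HSPA1A, control 2).

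Members, lists and the rule for named genes were chosen with earlier results of these data known. The rule named all members, up to 2 genes per other list by smallest adjusted p where none passed (some are not described), and the 5 genes of most similar pattern, of which 1 is not reported here. Symbols were matched on identifiers for 51959 genes. The edgeR step was tested on simulated data. Alternatives were DESeq2 1.42.0 (15 adjusted p-values undefined), 2 other scalings, 2 filters, limma 3.58.1 fits, a replicate block, a summed HSPA1 row, left-out libraries and, chosen after seeing the data, edgeR's older quasi-likelihood method.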

Additional observations from a re-analysis of the deposited data

How the results depend on the processing

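Under 18 of the 19 alternatives 0 members were called. The exception was the comparison without NRG1 1 and control 3, with 3 members called, all higher, among 1515 genes called. Both libraries were left out with their values known, so these calls do not support a difference. In that comparison the log2 fold change was 1.5 for HSPA1A. The sign turned for HSPA1B (1.16), HSPA8 (0.96), DNAJB1 (0.53), BAG3 (0.20), HSPH1 (0.12) and HSPE1 (-0.091). The number of genes called was 1 with all libraries, 209 in DESeq2, 21 without a low-count filter, 2 in limma-trend on log2(CPM + 1) and on log2(CPM + 0.25), 2 in limma-voom without rounding, and 1 to 37 when leaving out each library in turn, with 0 members each time; 37 was without NRG1 1. The sign of HSPA1B and HSPA8 also turned in limma-trend with both pseudocounts (0.10 and 0.23), on the deposited log2 values (0.11 and 0.23) and in limma-voom (0.10 and 0.22), which average log values, and that of HSPA8 with upper-quartile scaling (0.062). With the replicate number as a block, 2 genes and 0 members were called, with 0.10 for HSPA1B and 0.23 for HSPA8. Deviations of same-numbered libraries correlated at 0.02, 0.125 and -0.08, and those of differently numbered ones at -0.176 to 0.164. With 3 libraries per group, these values cannot show whether the numbers pair the libraries. Leaving out each library in turn, log2 fold changes ran from -0.13 to 1.21 for HSPA1A, -0.54 to 0.89 for HSPA1B, -0.34 to 0.82 for HSPA8, -0.61 to 0.20 for HSPH1, -1.38 to 0.45 for DNAJB1, -0.093 to 0.25 for HSPB1, -0.42 to 0.22 for BAG3, and from 0.055 to 0.69 for HSPE1, -1.07 to -0.31 for HSP90AA1 and -0.22 to -0.15 for HSF1, which kept their sign. Signs turned without control 3 for HSPA1B, HSPA8, HSPH1, DNAJB1, HSPB1 and BAG3, without NRG1 1 for HSPA1B and HSPA8, without NRG1 2 for HSPA1A and HSPB1, and without control 1 or control 2 for HSPA1A. The causes of the sign changes were not tested.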
